A study of Mus musculus with 6 samples.

Results

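The genes described here are 34 genes of antigen presentation by the major histocompatibility complex (MHC), 21 on the class I route and 13 on the class II route, out of 54532 genes in the deposited count table. They were chosen by gene name: the H2 heavy chains and class II chains, their partners in peptide supply and loading, and the factors that switch them on. Each of the 34 names matched 1 row, and all 34 had enough counts to be tested. The RNA came from haematopoietic stem and progenitor cells (HSPCs) from bone marrow of aged wild-type C57BL/6 mice. In 3 libraries the cells had been treated with uridine, a nucleoside from which cells make pyrimidine nucleotides, and in 3 libraries with vehicle. All 6 libraries therefore share the strain, the genotype and the aged source and differ by treatment. The labels speak of cultured cells and give neither the exact age, the dose and time of treatment, the sorting markers, nor whether replicates came from separate mice or cultures. The p-values thus measure the spread between these libraries, which may be technical.

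MHC class I molecules are made by nearly all nucleated cells. A heavy chain (H2-K1, H2-D1 and the H2-Q, H2-T and H2-M genes) pairs with the light chain B2m. It is loaded in the endoplasmic reticulum with peptides that the proteasome has cut and the Tap1-Tap2 transporter has imported. Class II molecules show peptides from endosomes to helper T cells and are strong in dendritic cells, macrophages and B cells. Their chains are guided by the invariant chain Cd74 and loaded with the help of H2-DM, which H2-O restrains. Nlrc5 and Ciita are the transactivators of the class I and the class II genes. They act with the RFX complex on short conserved boxes before each gene, and interferons raise both sets. Haematopoietic stem cells are known to carry MHC class I and also low amounts of class II.

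The promoters of 4 heavy chain genes and of the class II chain gene H2-Aa are shown because they cover genes that were higher, lower or not called with uridine. Each is RefSeq's window in GRCm38.p6, the assembly that mm10 names, from 250 bases before to 50 after the start site, in the direction of the gene. Capitals mark the motifs searched on both strands. These were AANNGAAA, the core of sites for interferon regulatory factors, GGGGATTCC for NF-kB, AGNNACNGA for the X box, TGACG for the X2 box and ATTGG for the Y box. The letters were chosen with the class I windows already read. Of the printed windows, only that of H2-Aa has overlapping matches, TGACG on both strands.
H2-Q6, chr17:35424600-35424899, plus strand: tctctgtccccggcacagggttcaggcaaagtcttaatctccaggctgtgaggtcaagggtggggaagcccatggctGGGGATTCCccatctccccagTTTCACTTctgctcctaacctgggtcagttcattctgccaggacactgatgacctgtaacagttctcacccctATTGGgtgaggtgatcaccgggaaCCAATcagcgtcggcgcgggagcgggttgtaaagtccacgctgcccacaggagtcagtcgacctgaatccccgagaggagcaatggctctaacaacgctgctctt
H2-Q7, chr17:35438905-35439204, plus strand: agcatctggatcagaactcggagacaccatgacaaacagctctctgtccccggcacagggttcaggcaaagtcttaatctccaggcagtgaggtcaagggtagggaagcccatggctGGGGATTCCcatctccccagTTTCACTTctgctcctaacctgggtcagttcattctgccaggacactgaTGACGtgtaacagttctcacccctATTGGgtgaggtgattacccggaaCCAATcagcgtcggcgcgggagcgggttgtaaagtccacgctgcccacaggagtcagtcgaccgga
H2-T23, chr17:36032652-36032951, minus strand: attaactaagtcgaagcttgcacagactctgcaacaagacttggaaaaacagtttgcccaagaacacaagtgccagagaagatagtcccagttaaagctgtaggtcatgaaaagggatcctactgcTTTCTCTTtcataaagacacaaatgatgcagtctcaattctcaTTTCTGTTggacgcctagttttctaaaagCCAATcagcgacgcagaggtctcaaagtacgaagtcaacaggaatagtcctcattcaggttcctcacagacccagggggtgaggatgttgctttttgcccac
H2-K1, chr17:34000298-34000597, minus strand: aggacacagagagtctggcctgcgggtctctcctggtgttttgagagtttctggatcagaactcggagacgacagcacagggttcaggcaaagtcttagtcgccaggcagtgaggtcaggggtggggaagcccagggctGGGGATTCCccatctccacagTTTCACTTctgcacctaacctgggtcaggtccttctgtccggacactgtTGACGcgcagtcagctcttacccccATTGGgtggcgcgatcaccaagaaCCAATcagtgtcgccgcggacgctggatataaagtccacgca
H2-Aa, chr17:34287774-34288073, minus strand: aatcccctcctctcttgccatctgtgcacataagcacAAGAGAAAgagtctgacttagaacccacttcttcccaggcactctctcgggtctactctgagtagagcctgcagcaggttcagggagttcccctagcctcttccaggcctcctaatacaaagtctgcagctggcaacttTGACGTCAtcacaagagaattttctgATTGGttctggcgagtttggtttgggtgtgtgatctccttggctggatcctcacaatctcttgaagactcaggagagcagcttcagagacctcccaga

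The windows of H2-Q6 and H2-Q7 were identical at 254 of 260 aligned bases (97.7%). The H2-K1 window was identical to that of H2-Q7 at 219 of 253 aligned bases (86.6%). Of the 34 genes, 26 had a RefSeq window, and the first listed window was searched for each. AANNGAAA stood in 14 of the 26 windows and in 23.9% of all 32851 windows. All 8 heavy chain genes with a window held it, both those called higher and H2-K1, H2-T22 and H2-M3, which were not called. GGGGATTCC stood in 4 of the 26 windows (H2-K1, H2-D1, H2-Q6 and H2-Q7) and in 0.25% of all windows. The X box letters stood in 8 of the 26 windows and in 17.7% of all windows. TGACG stood in 11 of the 26 and in 20.8% of all windows, and ATTGG in 20 of the 26 and in 37.4% of all windows. H2-Q6 and H2-Q7, which both rose, differ in TGACG, which stands in the window of H2-Q7 and not in that of H2-Q6. H2-Aa, which fell, holds AANNGAAA, TGACG and ATTGG. A match describes these letters in this window and is not a measured binding site.

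The libraries held 16109265 to 18638627 counts each, and the 34 genes took 0.525% to 0.528% of them with uridine and 0.512% to 0.518% with vehicle. Levels are in CPM, the usual count scaled to library size, with library sizes corrected by edgeR's TMM factors. Levels of different genes are compared in CPM per kilobase of gene length. A gene was called when its adjusted p in edgeR's quasi-likelihood test, with Benjamini-Hochberg adjustment over all 14706 genes tested, was under 0.05. Across all genes tested 17.3% were called, 7.18% higher and 10.1% lower with uridine, and the CPM of the groups did not overlap for 30.8%. The cells carried stem and progenitor markers, among them Kit at a mean of 382 CPM with uridine and 364.5 CPM with vehicle. Ly6a, the marker Sca-1, was far lower with uridine, at 2.74, 3.96 and 3.78 CPM against 15.95, 14.8 and 14.3 CPM with vehicle (log2 difference -2.10 ± 0.15). Cd48 fell as well (-0.28 ± 0.054). Defining T cell markers were at or near 0, with Cd3d and Cd3g at 0 or 1 count in every library. The summed CPM of 12 monocyte and macrophage markers was 215.5 to 219.5 with uridine and 502 to 523 with vehicle. All 11 of these markers that were tested fell. Among them Fcgr1 had 11, 8 and 14 counts with uridine and 37, 22 and 24 counts with vehicle. It passed the count filter only through the vehicle libraries, so its fall lends no support to the count. In bulk RNA, fewer cells of a type and less RNA per cell cannot be told apart.

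Among the 34 genes, 5 rose and 6 fell with uridine and 23 were not called. The 32.4% called stands beside 17.3% of all genes tested, with 14.7% rising beside 7.18% and 17.6% falling beside 10.1%. The 34 genes were chosen with earlier results of these data known, so these shares are a description and no test. All 5 rising genes were class I heavy chains, by 3.86% to 16.4%. The falling genes were the invariant chain gene Cd74, the class II chain gene H2-Aa, the heavy chain gene H2-T24, the peptide trimming enzyme gene Erap1, the tapasin gene Tapbp and the transactivator gene Nlrc5. Their falls ranged from 7.12% in Tapbp to 41.3% in Cd74. The median log2 difference was 0.024 over the 21 genes of the class I route and -0.12 over the 13 of the class II route, against 0.0053 over all genes tested. The groups did not overlap for 18 of the 34 genes (52.9%, against 30.8% of all genes tested), 8 with uridine higher and 10 with uridine lower.

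**Figure D1:**
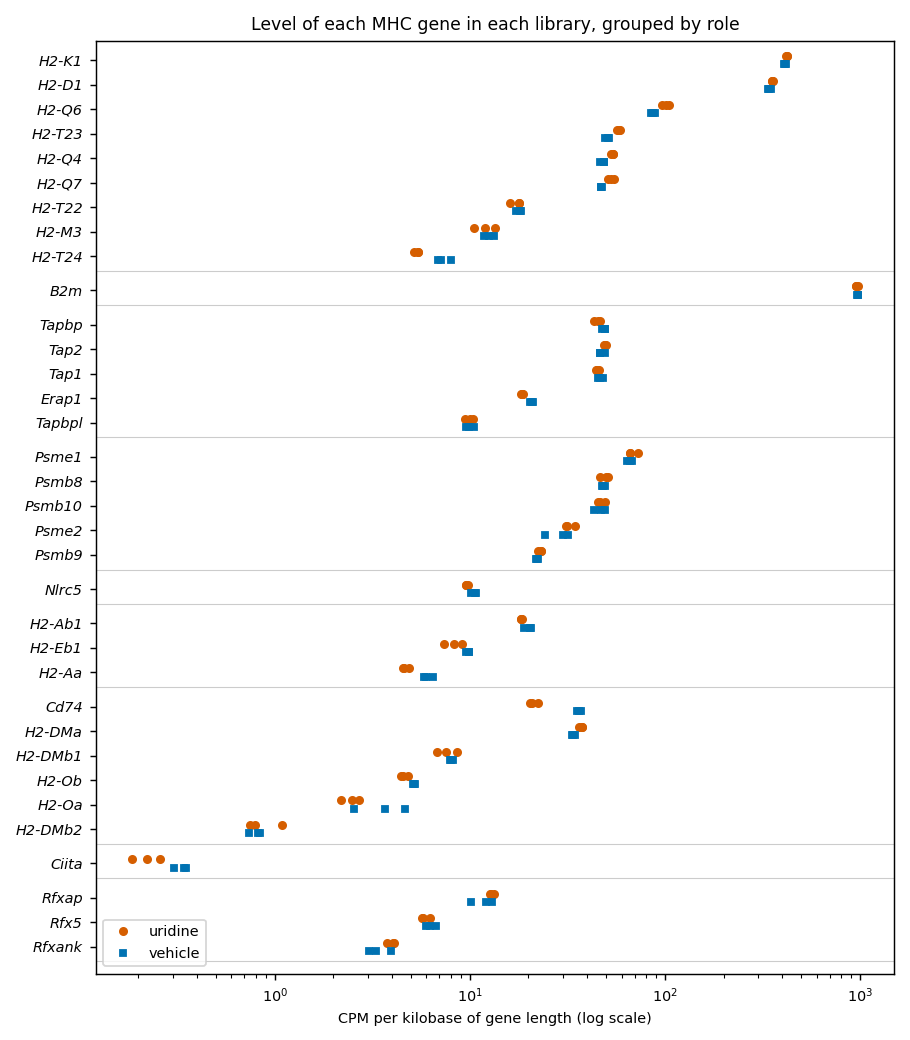
Level of each of the 34 genes in each library, in CPM per kilobase of gene length on a log axis, with the 3 uridine libraries as circles just above the 3 vehicle libraries as squares and genes grouped by role. B2m (965 with uridine, 975 with vehicle), H2-K1 and H2-D1 stand far above the class II genes, and Ciita is the lowest (0.221 with uridine, 0.334 with vehicle).

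Per kilobase the light chain and the classical heavy chains stood highest among the 34 genes in both groups. B2m had a mean of 965 CPM per kilobase with uridine and 975 with vehicle, rank 20 among the 14706 genes tested. H2-K1 followed with 420.3 with uridine and 412.5 with vehicle (rank 64), and H2-D1 with 356 with uridine and 343 with vehicle (rank 90). The other class I route genes ranged from 101 with uridine and 86.8 with vehicle in H2-Q6 (rank 449) down to 5.34 with uridine and 7.34 with vehicle in H2-T24 (rank 7342). The class II route lay within and below that range. H2-DMa was its highest gene by the mean of both groups, with 37.2 CPM per kilobase with uridine and 34.1 with vehicle (rank 1599). Cd74 had 21.3 CPM per kilobase with uridine and 36.2 with vehicle. H2-Ab1 had 18.4 with uridine and 20 with vehicle, and H2-Aa had 4.68 with uridine and 6.08 with vehicle. Ciita, at 0.221 with uridine and 0.334 with vehicle, ranked 13875. In CPM per kilobase H2-Aa, H2-Ab1 and H2-Eb1 together came to 3.95% to 4.14% of H2-K1 and H2-D1 with uridine and 4.59% to 4.93% with vehicle.

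The classical heavy chains that present peptides to killer T cells moved little. H2-K1 (ENSMUSG00000061232; chromosome 17, 33996017 to 34000333 in mm10) had 1099, 1091 and 1099 CPM with uridine and 1078, 1087 and 1063 CPM with vehicle. The uridine libraries lay above the vehicle libraries, but the log2 difference of 0.027 ± 0.016 (SE) was not called (adjusted p = 0.294 in edgeR's test). Its 95% interval ran from -0.0059 to 0.06. H2-D1 (ENSMUSG00000073411; chromosome 17, 35262730 to 35267499) had 915, 914 and 927 CPM with uridine and 898, 876 and 879.9 CPM with vehicle. Here too the groups did not overlap, and H2-D1 rose by a log2 difference of 0.055 ± 0.017 (adjusted p = 0.0191). That call was lost without uridine replicate 3 (0.109), vehicle replicate 2 (0.0998) or vehicle replicate 3 (0.0817), where the adjusted p stands in brackets here and in like cases. It was also lost with the trend of counts on gene length removed (0.117) and with no count filter (0.101).

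H2-Q4, H2-Q6 and H2-Q7 rose. They lie in the Q region, where H2-Q7 and its close copies encode the non-classical molecules known as Qa-2. H2-Q6 (ENSMUSG00000073409; chromosome 17, 35424850 to 35430055) had 200.9, 219.9 and 210.5 CPM with uridine and 181, 186 and 176 CPM with vehicle. Every uridine library lay above every vehicle library, with a log2 difference of 0.22 ± 0.031 (adjusted p = 5.5e-08). This was the largest rise among the 34 genes, and 13.3% of all genes tested had a higher value. H2-Q7 (ENSMUSG00000060550; chromosome 17, 35439155 to 35443773) had 234, 225 and 219 CPM with uridine and 201, 199.9 and 202 CPM with vehicle. The vehicle libraries were close together and below all uridine libraries, and the log2 difference was 0.17 ± 0.029 (adjusted p = 5.0e-06). H2-Q4 (ENSMUSG00000035929; chromosome 17, 35379617 to 35385290), which encodes the non-classical molecule Qb-1, had 140.1, 142 and 137.5 CPM with uridine and 127, 127 and 121.5 CPM with vehicle. It rose by 0.16 ± 0.035 on the log2 scale (adjusted p = 4.0e-04) with no overlap between the groups. In CPM per kilobase the 3 genes together amounted to 26.3% to 27.5% of H2-K1 and H2-D1 with uridine and 23.9% to 24.4% with vehicle.

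Close copies can share reads, and no source used here says how reads that map equally well to more than 1 gene were counted. Of the distinct 150-base windows in the transcripts of H2-Q6 in GENCODE vM21, 5.99% also occurred in another gene, all in H2-Q7. For H2-Q7 the share was 5.9% over 3 other genes, the most with H2-Q10 (2.87%). For H2-Q4 the share was 9.87% (with the antisense gene Gm11131) and for H2-D1 1.35% (with H2-Q1). H2-K1, H2-T24 and H2-M3 had no window in common with another gene. The summed CPM of H2-Q6 and H2-Q7, which a split of reads between these copies leaves as it is, was 429.5 to 445 with uridine and 379 to 386 with vehicle. That sum does not cover reads that H2-Q7 may share with H2-Q10 or other genes. Of 28 other rows whose name begins with H2-, 5 passed the count filter. From these 5, 1 was called (20%, beside 17.3% of all genes tested). This was the Q-region gene H2-Q5, named after its values were seen, annotated as a polymorphic pseudogene, with 49.1 ± 1.36 CPM with uridine and 43.7 ± 0.933 CPM with vehicle (SD, n = 3 each; log2 difference 0.17, adjusted p = 0.0389 in edgeR's test). H2-Q10, also of the Q region, was among the 4 not called, with 3.27 to 3.53 CPM with uridine and 2.71 to 3.62 CPM with vehicle, which overlap (log2 difference 0.14 ± 0.22).

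Of the heavy chains of the T and M regions, 1 rose, 1 fell and 2 were not called. Beside this, 7.18% of all genes tested rose and 10.1% fell. H2-T23 (ENSMUSG00000067212; chromosome 17, 36029773 to 36032855) encodes Qa-1, which binds the receptor CD94/NKG2A of natural killer cells. It had 168, 169.6 and 165 CPM with uridine and 148, 143 and 149.6 CPM with vehicle. The groups did not overlap, and the log2 difference was 0.19 ± 0.033 (adjusted p = 5.2e-06). H2-T24 (ENSMUSG00000053835; chromosome 17, 36005695 to 36020560), a non-classical heavy chain gene at a low level, had 11.3, 11.8 and 11.8 CPM with uridine and 15.5, 15.0 and 17.5 CPM with vehicle. It fell by 0.46 on the log2 scale (SE 0.11, adjusted p = 8.9e-04), the opposite direction to its neighbour H2-T23, and 5.99% of all genes tested had a lower value. H2-T22, a ligand of some gamma-delta T cells, had 55.02 to 61.3 CPM with uridine and 59.2 to 62.4 CPM with vehicle. H2-M3, which presents formylated peptides, had 15.2 to 19.3 CPM with uridine and 16.98 to 19.2 CPM with vehicle. Both genes overlapped between the groups, with log2 differences of -0.045 and -0.062. For H2-T22, 22.3% of the 150-base windows also occurred in another gene, nearly all of these in the antisense gene A930015D03Rik, which had a mean of 10 counts.

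**Figure D2:**
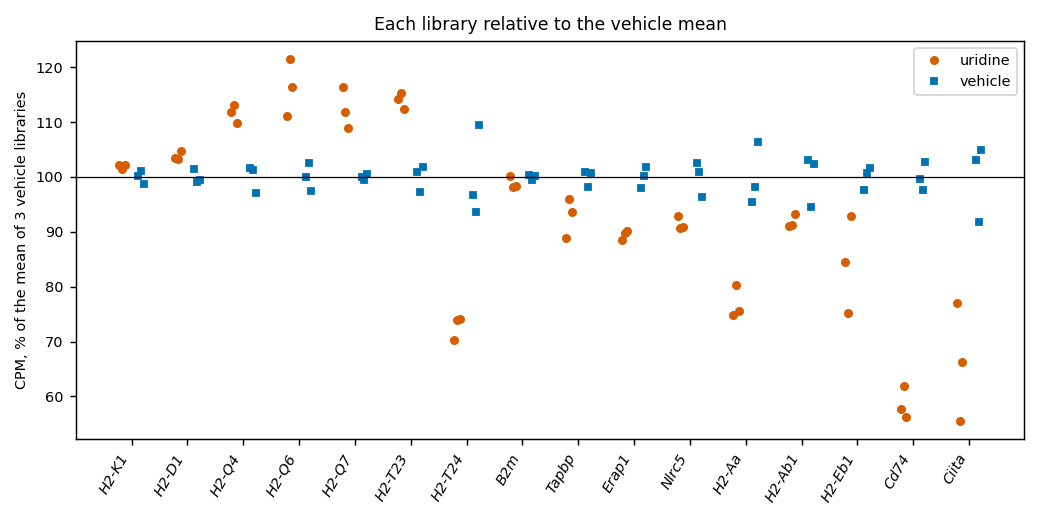
CPM of 16 genes in each library as a percentage of the mean of the 3 vehicle libraries, with uridine libraries as circles at the left of vehicle libraries as squares for each gene. H2-Q4, H2-Q6, H2-Q7 and H2-T23 lie above the vehicle libraries, H2-T24, H2-Aa and Cd74 lie below them, and B2m overlaps.

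The light chain did not move with the heavy chains. B2m (ENSMUSG00000060802; chromosome 2, 122147686 to 122153083) had 841, 824 and 824.5 CPM with uridine and 842, 834 and 841 CPM with vehicle. The groups overlapped, and the log2 difference was -0.016 ± 0.018 (adjusted p = 0.622 in edgeR's test, 95% interval -0.051 to 0.019). With the trend on gene length removed the value was -0.09 and B2m was called (8.2e-05). The transactivator gene Nlrc5 (ENSMUSG00000074151; chromosome 8, 94434356 to 94527272) had 82.8, 80.9 and 81.1 CPM with uridine and 91.5, 90.01 and 86.0 CPM with vehicle. While 5 of the 9 heavy chain genes rose (55.6%, beside 7.18% of all genes tested), Nlrc5 fell. The fall was 0.13 on the log2 scale (SE 0.043, adjusted p = 0.0294). That call was lost without uridine replicate 2 (0.0922) or 3 (0.0715) or vehicle replicate 1 (0.135) or 2 (0.0941). DESeq2's Wald test gave 0.0749, and removal of the length trend gave a log2 value of -0.081 (0.225).

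Of the 5 genes of peptide transport, loading and trimming, 2 fell (40%, beside 10.1% of all genes tested) and 3 were not called. Erap1 (ENSMUSG00000021583; chromosome 13, 74639568 to 74693201), which trims peptides in the endoplasmic reticulum, had 134, 136 and 136 CPM with uridine and 148, 151 and 154 CPM with vehicle. It fell by 0.16 on the log2 scale (SE 0.034, adjusted p = 1.8e-04) with no overlap. The Erap1 gene body shares 834 bases with Cast on the other strand, and 9.43% of its 150-base windows occur in Cast, which had a log2 difference of 0.027 and was not called. Tapbp (ENSMUSG00000024308; chromosome 17, 33915899 to 33929288) encodes tapasin, which holds the heavy chain at the transporter. It had 143, 154 and 150.2 CPM with uridine and 162, 158 and 162 CPM with vehicle, a fall of 0.11 on the log2 scale (SE 0.033, adjusted p = 0.0166). Its gene body overlaps that of Zbtb22 on the same strand (log2 difference 0.089, not called). The call of Tapbp was lost without uridine replicate 1 (0.171, the value being -0.076) or vehicle replicate 1 (0.0613) or 3 (0.064), and DESeq2's Wald test gave 0.0539. The transporter subunit genes Tap1 (log2 difference -0.044 ± 0.027) and Tap2 (0.052 ± 0.031) and the tapasin-related gene Tapbpl (-0.012 ± 0.083) were not called and overlapped between the groups.

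None of the 5 immunoproteasome genes was called, and their log2 differences ran from 0.018 in Psmb10 to 0.17 in Psme2. Psmb8, Psmb9 and Psmb10 encode the catalytic subunits that replace those of the constitutive core in immune cells, and Psme1 and Psme2 encode the activator cap. Psmb9 had 82.1 to 84.7 CPM with uridine and 79.6 to 82.03 CPM with vehicle, which did not overlap, though it was not called. Psme2 had 61.1, 55.5 and 54.8 CPM with uridine and 53.3, 42.9 and 56.1 CPM with vehicle, with vehicle replicate 2 below all others (log2 difference 0.17 ± 0.075, adjusted p = 0.134). Without vehicle replicate 3 Psme2 stood at 0.25 and was called (0.0096), while 12.1% of its 150-base windows occur in the copy Psme2b. The 7 constitutive counterparts and regulators, among them Psmb5, Psmb6 and Psmb7, held no called gene either. In CPM per kilobase Psmb8, Psmb9 and Psmb10 together came to 57.7% to 62.8% of Psmb5, Psmb6 and Psmb7 with uridine and 60.9% to 63.6% with vehicle, which overlap.

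**Figure D3:**
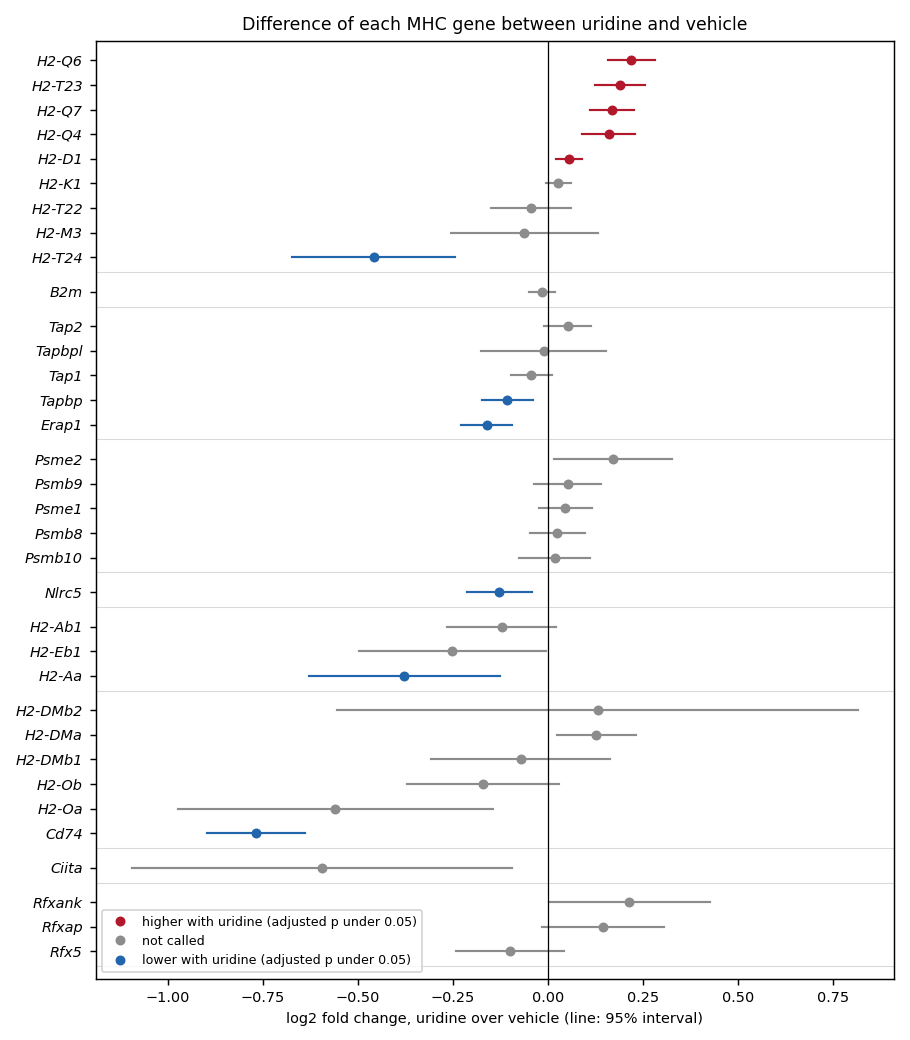
Log2 fold change of uridine over vehicle for each of the 34 genes, as points with 95% intervals from edgeR's fit, grouped by role from class I heavy chains at the top to the RFX complex at the bottom. The 5 called rises are class I heavy chains, and the lowest value is that of Cd74 at -0.77.

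On the class II route 2 of 13 genes fell and 0 rose. The 15.4% called is close to the 17.3% of all genes tested, so the count by itself does not set the route apart. Cd74 (ENSMUSG00000024610; chromosome 18, 60803848 to 60812646), the invariant chain that guides class II molecules to endosomes and is also the receptor of the cytokine MIF, had 29.5, 31.7 and 28.8 CPM with uridine. With vehicle it had 51.0, 49.9 and 52.5 CPM. No uridine library came near a vehicle library, and Cd74 fell by 0.77 on the log2 scale (SE 0.065, adjusted p = 5.5e-16 in edgeR's test). This was the largest fall among the 34 genes, and 2.81% of all genes tested had a lower value. H2-Aa (ENSMUSG00000036594; chromosome 17, 34282744 to 34287827), the alpha chain of I-A, had 8.52, 9.16 and 8.62 CPM with uridine and 10.9, 11.2 and 12.1 CPM with vehicle. It fell by 0.38 on the log2 scale (SE 0.13, adjusted p = 0.0266). The call of H2-Aa was lost without uridine replicate 1 (0.0796) or 3 (0.0671) or vehicle replicate 3 (0.123), and DESeq2's Wald test gave 0.06.

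The other class II chains were lower in every uridine library but not called. H2-Ab1, the beta chain of I-A (chromosome 17, 34263209 to 34269418), had 29.8, 29.9 and 30.5 CPM with uridine and 33.7, 31.0 and 33.5 CPM with vehicle. Its log2 difference was -0.12 ± 0.072 (adjusted p = 0.271). H2-Eb1 (chromosome 17, 34305877 to 34316199), the beta chain of I-E, had 9.8, 8.73 and 10.8 CPM with uridine and 11.3, 11.7 and 11.8 CPM with vehicle. Its log2 difference was -0.25 ± 0.12 (adjusted p = 0.164). C57BL/6 mice make no I-E protein because they lack a working alpha chain gene. In CPM per kilobase Cd74 came to 63.1% to 73.6% of these 3 chains together with uridine and 100.4% to 101.8% with vehicle, so Cd74 and the chains differed by unequal factors.

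The class II transactivator and the loading genes gave no call. Ciita (ENSMUSG00000022504; chromosome 16, 10480059 to 10528418) had 2.45, 1.77 and 2.11 CPM with uridine and 3.28, 2.92 and 3.34 CPM with vehicle. The groups did not overlap, but at this low level the log2 difference of -0.59 ± 0.25 was not called (adjusted p = 0.0934, 95% interval -1.09 to -0.096). Its gene body overlaps Dexi on the other strand. The subunits of the peptide exchanger H2-DM went in no common direction. H2-DMa had 59.8 to 61.7 CPM with uridine and 55.1 to 57.0 CPM with vehicle (log2 difference 0.13 ± 0.053, adjusted p = 0.0856), while H2-DMb1 (-0.072 ± 0.12) and H2-DMb2 (0.13 ± 0.34) overlapped. The H2-DM restraining genes had negative values. H2-Oa had 3.56, 2.89 and 3.29 CPM with uridine and 4.84, 3.37 and 6.12 CPM with vehicle (-0.56 ± 0.21, adjusted p = 0.0509). Without vehicle replicate 2, the lowest of the vehicle libraries, H2-Oa stood at -0.76 and was called (0.0105). It was called too with the length trend removed (0.0351), with genes under a mean of 50 counts left out (0.0443) and among protein-coding genes without mitochondrial ones (0.0482). H2-Ob had 13.9 to 15.3 CPM with uridine and 16.1 to 16.6 CPM with vehicle (-0.17 ± 0.1, adjusted p = 0.269). The RFX complex genes Rfx5 (-0.1 ± 0.071), Rfxap (0.14 ± 0.08) and Rfxank (0.21 ± 0.11), whose loss abolishes class II in humans, overlapped between the groups and were not called. Rfxank shares 21% of its 150-base windows with Nr2c2ap and Rfx5 16% with the antisense gene B230398E01Rik.

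Of 70 tested genes in 7 lists of the same and adjoining pathways, 23 fell and 2 rose. This is 32.9% falling beside 10.1% of all genes tested and 2.86% rising beside 7.18%. The lists were chosen with earlier results of these data known, so these shares are a description and no test. The 23 include Cd40, which passed the count filter only through the vehicle libraries. With library totals alone the counts were 20 falling and 5 rising, and with DESeq2's Wald test 16 falling and 1 rising. Without vehicle replicate 1 they were 20 falling and 1 rising, and without vehicle replicate 3 they were 18 falling and 1 rising. Of 9 endolysosomal genes of the class II route 5 fell and 0 rose, with a median log2 difference of -0.16. Cathepsin S, the protease that cuts the invariant chain down to its last fragment, is encoded by Ctss, which had 11.2 ± 0.832 CPM with uridine and 22.4 ± 0.241 CPM with vehicle (SD, n = 3 each; log2 difference -0.995 ± 0.099, adjusted p = 4.2e-13 in edgeR's test). Ctsz (-0.56 ± 0.039) and Ctsh (-0.82 ± 0.15), which encode further cathepsins, and Ctsb (-0.14 ± 0.03) fell too. Of 21 genes of interferon receptors, JAK-STAT and IRF factors 8 fell and 0 rose, with a median of -0.094. Those with the smallest p-values were Irf8, a factor of monocyte and dendritic cell fate (-0.61 ± 0.047, 60.3 ± 3.23 CPM with uridine and 92.3 ± 1.74 CPM with vehicle), and both receptor genes for interferon gamma, Ifngr2 (-0.87 ± 0.097) and Ifngr1 (-0.37 ± 0.049). Irf1, a factor that acts on class I promoters after interferon gamma, was not called (-0.047 ± 0.062).

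Of 7 genes for chaperones and the translocation channel that serve class I assembly, 2 fell and 1 rose. This is 28.6% falling beside 10.1% of all genes tested and 14.3% rising beside 7.18%. Calr, the chaperone calreticulin that holds the heavy chain in the loading complex, had 1291 ± 21.2 CPM with uridine and 1445 ± 2.15 CPM with vehicle (SD, n = 3 each; log2 difference -0.16 ± 0.016). Uggt1, which checks the folding of glycoproteins, fell by 0.2 on the log2 scale, and Sec61g, a small channel subunit, rose by 0.31. The loading complex genes Canx and Pdia3 were not called. Among 11 partners on MHC promoters 4 fell and 0 rose, which is 36.4% falling beside 10.1% of all genes tested. The coactivator genes Crebbp (-0.3 ± 0.043) and Ep300 (-0.16 ± 0.029) fell, as did Creb1 (-0.12 ± 0.037) and the remodelling ATPase gene Smarca4 (-0.06 ± 0.022), and the Y box binding genes Nfya, Nfyb and Nfyc were not called. With the length trend removed Ep300 (-0.072, adjusted p = 0.0881 in edgeR's test), Creb1 (-0.035, 0.612) and Smarca4 (-0.032, 0.385) were not called. Of the 4, only Crebbp was called in all 16 alternatives, and Smarca4 lost its call in 11 of them. The call of Creb1 was lost without uridine replicate 2 (0.112) or 3 (0.133) or vehicle replicate 2 (0.0699) or 3 (0.0594). The call of Smarca4 was lost without uridine replicate 1 (0.243) or 2 (0.0601) or vehicle replicate 1 (0.156) or 2 (0.134).

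Of 7 MHC-like genes tested, Hfe, a regulator of iron uptake (-0.68 ± 0.19), and the NKG2D ligand gene Ulbp1 (-0.11 ± 0.036) fell and Mr1 (0.34 ± 0.11), which presents vitamin metabolites to MAIT cells, rose. This is 28.6% falling beside 10.1% of all genes tested and 14.3% rising beside 7.18%. The call of Mr1 was lost without uridine replicate 1 (0.0693) or vehicle replicate 1 (0.0612) or 3 (0.075), and that of Ulbp1 without uridine replicate 1 (0.0968) or 2 (0.0885) or vehicle replicate 3 (0.183). DESeq2's Wald test called neither (0.0525 for Mr1, 0.0676 for Ulbp1). Of 8 costimulatory and checkpoint ligand genes 2 were called lower, Icosl (-0.55 ± 0.17) and Cd40, which is 25% beside 10.1% of all genes tested. Cd40 had 1, 2 and 4 counts with uridine and 17, 16 and 12 counts with vehicle, so it passed the count filter only through the vehicle libraries, and its call lends no support to the count. The call of Icosl was lost without vehicle replicate 2 (0.11).

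**Figure D4:**
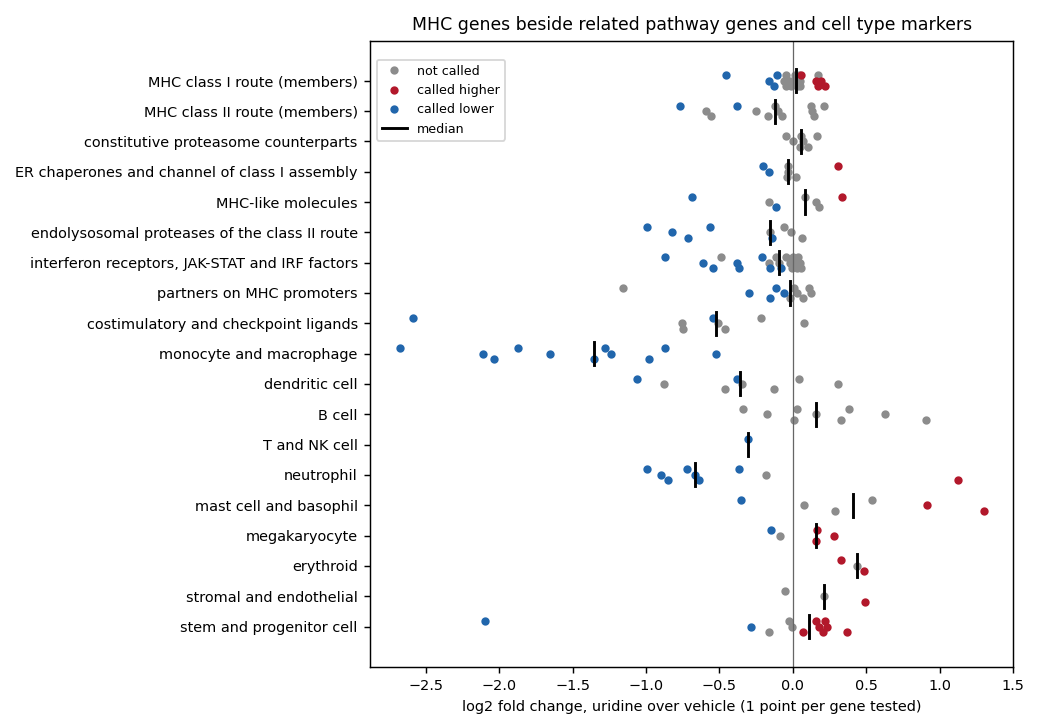
Log2 fold change of uridine over vehicle for each tested gene of the class I and class II routes, of 7 related pathway lists and of 10 cell type marker lists, with the median of each list as a bar. The median is 0.024 on the class I route, -0.12 on the class II route and -1.35 among the monocyte and macrophage markers.

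Among the cells that carry much class II and Cd74, the monocyte and macrophage markers fell with uridine and the B cell markers gave no call. Beside the counts of each marker list, 7.18% of all genes tested were called higher and 10.1% lower. The monocyte and macrophage markers, whose summed CPM is given above, had a median log2 difference of -1.35 over the 11 tested, Fcgr1 included. The summed CPM of 11 dendritic cell markers was 83.6 to 94.5 with uridine and 98.6 to 103 with vehicle, and of 8 tested 2, Ccr7 and Naaa, fell and 0 rose. The call of Naaa (-0.38) was lost without uridine replicate 1 (-0.26, adjusted p = 0.258) or vehicle replicate 1 (-0.24, 0.315) or 2 (0.0617), and DESeq2's Wald test gave 0.111. Xcr1, Cd209a and Batf3 were under 1 CPM in every library. Of 10 B cell markers the sum was 21.8 to 24 CPM with uridine and 19.98 to 22.7 CPM with vehicle, with 0 of 9 tested called and Ms4a1 at 3 counts or fewer in every library. Of the 9, 7 had positive and 2 negative log2 differences. Pax5 (0.63 ± 0.26) and Igll1 (0.91 ± 0.4) did not overlap between the groups, with uridine higher. At these low levels the lack of a call does not show that the B cell markers were unchanged. The class II chains with Cd74 and the loading genes summed to 170 to 171 CPM with uridine and 192 to 202 CPM with vehicle. Within that sum Cd74 alone had a mean of 29.97 CPM with uridine and 51.11 CPM with vehicle. Of the 9 genes summed 7 were not called, and 2 had positive log2 differences. The class I heavy chains summed to 2840 to 2853 CPM with uridine and 2689 to 2730 CPM with vehicle. The summed CPM of 12 stem and progenitor markers was 1780 to 1831 with uridine and 1701 to 1727 with vehicle, with 7 of the 12 rising and 2, Ly6a and Cd48, falling. The sum of 10 neutrophil markers was 1569 to 1610 CPM with uridine and 2863 to 2936 CPM with vehicle, and of 9 tested 7 fell and 1 rose. Most of that sum was Mpo, at a mean of 1044 CPM with uridine and 1945 CPM with vehicle. Retnlg had 0 or 1 count in every library, and the gene that rose was Ltf (1.13 ± 0.19). Of 10 T and NK cell markers 9 were under 1 CPM in every library, and the one tested, Nkg7, fell. Of 6 mast cell and basophil markers tested 2 rose and 1 fell, and of 5 megakaryocyte markers 3 rose and 1 fell. Among those 3, Gp9 lost its call without uridine replicate 2 (adjusted p = 0.0789 in edgeR's test) or vehicle replicate 3 (0.151). With the length trend removed Gp9 was not called either (0.212). Of 3 erythroid markers tested 2 rose, and of 3 stromal and endothelial markers 1 rose, with none falling in either list. That 1, Col1a2, lost its call without any single library other than vehicle replicate 1 (adjusted p up to 0.191 without vehicle replicate 2), and DESeq2's Wald test gave 0.0987. The part of a shift in cell types in the differences of the MHC genes was not tested.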

How the data were processed

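RNA with poly(A) tails from 6 samples was sequenced in paired reads, per the labels' protocols, 3 treated with uridine and 3 with vehicle. The authors deposited raw read counts per gene in a single table, with each gene's length in bases as they give it. The submitters' processing notes list HISAT2 2.0.5 and mm10. No source used here gives the counting program, annotation release or strand setting, so reads of overlapping genes on the 2 strands may not be told apart. In GENCODE vM21 all 34 members were found, 24 of them with the same start and end.

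Columns were assigned to samples by the names in the labels. The filter filterByExpr left 14706 genes. The TMM-scaled libraries were compared with edgeR 4.0.16 (glmQLFit, robust, treatment as the model's single term; R 4.3.3), which was tested on simulated data. Each SE was derived from the coefficient and its F statistic, and intervals are at 95%. The members and lists were chosen with earlier results of these data known. Members called and the main chains and regulators are given by library. In other lists up to 4 called genes with the smallest adjusted p are named, and uncalled genes named there were chosen for their role. Alternatives used DESeq2 1.42.0, limma 3.58.1, other scalings and filters, a gene length offset, a replicate block and left-out libraries.

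Replicates were set against each other by a chi-square statistic averaged over genes, with no p-value taken. The mean per gene was 2.28 to 2.52, against 1 for sampling noise. No library was therefore treated as a second sequencing of another. The statistic cannot tell separate mice or cultures from separate preparations of 1 pool of cells. At these depths 3 counts correspond to 0.161 to 0.186 CPM, which covers counting error only.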

Additional observations from a re-analysis of the deposited data

How the results depend on the processing

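In 16 alternatives none of the 11 called members changed sign, and 7 of them (H2-Q4, H2-Q6, H2-Q7, H2-T23, H2-T24, Erap1 and Cd74) were called in all 16. Of the 23 members not called, 3 (B2m, Psme2 and H2-Oa) were called in at least 1 alternative. With DESeq2's Wald test 696 genes were called higher, against 1056, and 3 members lower, against 6. The genes of the pathway lists that were called higher numbered 2, against 5 with library totals alone, 1 with DESeq2's Wald test, 4 after removal of the gene length trend, 4 after that with the replicate block, and 4 among protein-coding genes. Leaving out single libraries gave 1 to 3; the cause was not tested. The sign of Psmb10 changed once the length trend was taken out (-0.014, and -0.014 with the replicate block as well). Without single libraries the log2 values of the members whose sign changed ran from -0.030 to 0.061 for Psmb10, -0.043 to 0.028 for Tapbpl, -0.0060 to 0.059 for Psmb8, -0.071 to 0.0026 for H2-T22, -0.15 to 0.018 for H2-M3, -0.17 to 0.0072 for H2-DMb1 and -0.052 to 0.24 for H2-DMb2, none of them called. Replicate numbers share only a number: same-numbered libraries' deviations correlated at -0.015, 0.027 and -0.014, and not every library correlated best with its own number. With the replicate block 972 genes were called higher and 1428 lower, and 6 members higher and 6 lower, Psme2 being added (adjusted p = 0.048 in edgeR's test). Ciita, H2-Oa and H2-DMb2 had the lowest counts of the members and wide intervals; the part of depth in that was not tested.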
